A study of Spongilla lacustris with 18 samples.

Results

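The protein part of the cytosolic ribosome was followed through 113 genes of the freshwater sponge Spongilla lacustris, out of 39562 genes in the count table. A gene was taken when its annotation held a symbol of the RPL or RPS series, a stalk protein symbol (RPLP0 to RPLP2), RPSA or FAU. Kinases of the RPS6K family and mitochondrial ribosomal proteins were left out. Of the 113 genes, 50 carried a small subunit name and 63 a large subunit name. A filter on low counts left 84 for testing, 38 of the small and 46 of the large subunit. The other 29 were too low for a test, and 8 of them had no count in any library.

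The study asked how a nerveless animal responds to tryptamine, a trace amine made from tryptophan. Wild-type juvenile sponges, kept for 9 days at 18 °C, were taken as whole bodies for RNA sequencing. In the tryptamine groups they were exposed to 37.5 µM tryptamine for 1 h, for 4 h, or for 4 h and then washed and left to recover for 24 h. In the DMSO groups the vehicle alone, 0.03% DMSO, was given on the same 3 schedules. Each of the 6 groups had 3 libraries, numbered 1 to 3, and values for single libraries are given in that order. The labels do not say that replicates were separate cultures, so p-values measure only the spread between these samples, which may be technical. Whole bodies mix all cell types, so fewer cells of a type and less RNA per cell cannot be told apart.

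A ribosome is built from ribosomal RNA and from many proteins, most of them small and basic. Most are present once in the particle, so the cell has to make most of them in matched amounts. The small subunit reads the messenger RNA, and the large subunit joins amino acids and passes the growing chain through an exit tunnel. In vertebrates, messenger RNAs for ribosomal proteins begin with a run of pyrimidines, and the kinase complex mTORC1 and the RNA-binding protein LARP1 control their translation together. Archaeocytes, the motile stem cells of sponges, are recognised by a large nucleolus, the place where ribosomes are assembled.

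Of 78 vertebrate ribosomal protein symbols searched, 64 matched at least 1 gene, 26 of 32 for the small subunit and 38 of 46 for the large. No annotation used here held RPS16, RPS21, RPS27, RPS28, RPS29, FAU, RPL10, RPL15, RPL29, RPL34, RPL37, RPL38, RPL39 or RPL41. The names state similarity to vertebrate or other relatives, since the counted genes come from an assembled transcriptome. No genome coordinates or sequences were used.

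The members fell into an abundant and a scarce class. Averaged over the 18 libraries, 72 genes had at least 100 counts per library and 41 had fewer. The scarcest of the abundant ones was RPS6 c95923-g1, at 264 counts. Together the 113 genes took 2.86% to 4.27% of the counted read pairs in a library.

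Levels were compared between genes as TMM-scaled CPM, counts relative to the scaled library total, per kilobase of the longest transcript entry, averaged over the libraries. In the small subunit the highest level per kilobase was that of RPS27A c40418-g1, 1379.9 CPM per kb, whose product is made as a fusion with ubiquitin. RPS7 c105067-g1 followed at 1228 CPM per kb and RPS19 c105287-g1 at 1129 CPM per kb. In humans both proteins are needed for maturation of the small subunit's RNA, and RPS19 is the gene most often mutated in Diamond-Blackfan anaemia. In the large subunit RPLP2 c105099-g1 was highest at 1959 CPM per kb, followed by RPL9 c105077-g1 at 1438 CPM per kb and RPL23 c105951-g1 at 1427 CPM per kb. RPLP2 belongs to the flexible stalk that recruits elongation factors, RPL9 is a core protein of the large subunit, and RPL23 lies at the face where the subunits meet.

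Many symbols were carried by more than 1 gene, but 1 gene of each nearly always dominated. Of the 65 distinct symbols, 40 had more than 1 gene, and the highest gene of each symbol held 96.05% of the counts on members. The second gene took under 1% of its symbol's counts for 29 of the 40 and at least 1% for the other 11. Among the larger second shares were 28.81% for RPS27A, 26.47% for RPS14, 23.18% for RPL23A and 13.64% for RPL36. Read pairs that matched several entries were not counted, so the split between near-identical copies is uncertain.

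Symbols with several genes showed different patterns. RPL5, whose protein travels with RPL11 and a small ribosomal RNA as one particle, had 1 counted gene, RPL5 c110142-g1, at 1163 CPM per kb, and both other RPL5 genes had no count. RPL4, whose protein lines the exit tunnel, had c104433-g6 at 666 CPM per kb, c104433-g7 at 139 CPM per kb and c104433-g3 at 73.5 CPM per kb. The scarce second genes of RPLP0 (c107360-g1, 0.297 CPM per kb) and RPLP1 (c102948-g1, 2.02 CPM per kb) lay far below their abundant partners at 967 and 936 CPM per kb.

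**Figure D1:**
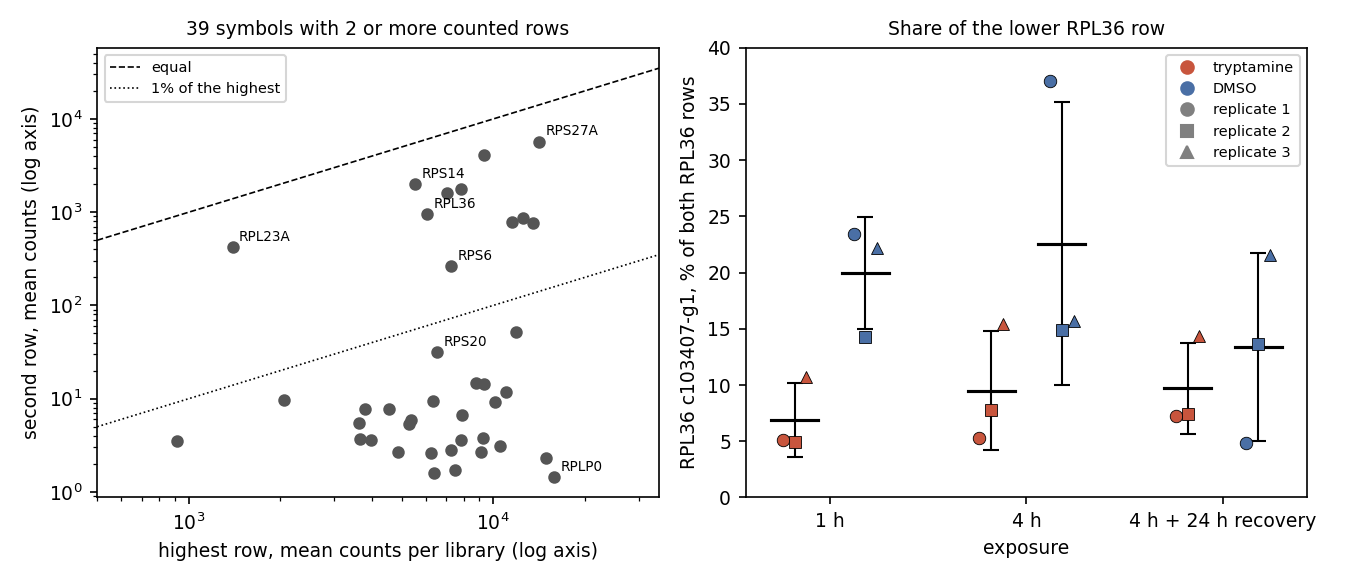
The left panel plots, for 39 symbols with 2 or more counted genes, the mean counts per library of the second gene against those of the highest gene, on log axes, with lines at equality and at 1% of the highest. The right panel plots the share of RPL36 c103407-g1 in the counts of both RPL36 genes for each library, with the mean and SD of 3 libraries. In the right panel the tryptamine libraries lie below the DMSO libraries at 1 h, between 4.90% and 10.7% against 14.3% to 23.4%.

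Within a group the abundant members varied about as much as other genes with at least 100 counts, which were not matched to them in abundance. The median coefficient of variation within groups was 13.87% over the 72 abundant members and 14.96% over 10348 other genes with at least 100 counts. The most variable were RPL36 c103407-g1 at 46.04%, RPS2 c101069-g1 at 29.08%, RPL27A c82957-g2 at 29.04% and RPL4 c104433-g7 at 25.95%, each a lower gene of its symbol except RPL27A, which had 1 gene. The RPL27A gene was named after its values were seen.

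Most abundant members also shifted up or down together from library to library. The median log2 deviation of the 72 genes from their own means was 0.12, 0.17 and -0.12 in the tryptamine recovery libraries and -0.25, -0.09 and -0.46 in the DMSO recovery libraries. At 4 h it was 0.11, 0.24 and -0.02 with tryptamine and 0.02, 0.32 and -0.18 with DMSO. At 1 h it was -0.07, 0.02 and -0.11 with tryptamine and 0.18, 0.22 and -0.18 with DMSO. The library numbered 3 was the lowest in each of the 6 groups, and these libraries were included in every comparison. Medians without any library numbered 3 were -0.22 at 1 h, 0.01 at 4 h and 0.29 after recovery, on the scale of the tryptamine minus DMSO log2 difference.

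After washout and 24 h of recovery, ribosomal protein genes took a larger share of the counted read pairs in tryptamine sponges than in DMSO sponges. Their share of counted read pairs was 4.06%, 4.27% and 3.75% in the tryptamine libraries, against 3.05%, 3.71% and 2.86% in the DMSO libraries. Each tryptamine library lay above each DMSO library, although the closest pair, 3.75% and 3.71%, nearly met. The libraries of that pair had different numbers. Same-numbered libraries differed by 1.00, 0.56 and 0.89 percentage points, though the labels do not say that the numbers pair libraries. The means were 4.03% and 3.21%, a ratio of 1.25. Scaled by TMM instead of by the library total, the ratio was 1.27. Leaving out 1 of the 6 libraries at a time gave ratios of 1.19 to 1.36. The exact 95% binomial interval of a share was at most 0.0222 percentage points wide, which covers counting error only.

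At the earlier times the shares overlapped. At 1 h they were 3.84%, 3.72% and 3.73% with tryptamine and 4.16%, 4.04% and 3.34% with DMSO, a ratio of means of 0.978. At 4 h they were 4.06%, 3.76% and 3.72% with tryptamine and 3.66%, 4.04% and 3.09% with DMSO, a ratio of 1.07. The DMSO libraries spread more widely than the tryptamine libraries at both times.

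The balance between the subunits was apart between the groups after recovery. Counts on large subunit genes were 1.38, 1.33 and 1.38 times those on small subunit genes in the tryptamine libraries, against 1.28, 1.27 and 1.29 times in the DMSO libraries. The groups did not overlap. At 1 h the ratios were 1.43, 1.28 and 1.32 with tryptamine and 1.30, 1.26 and 1.26 with DMSO, and at 4 h 1.37, 1.27 and 1.31 with tryptamine and 1.30, 1.34 and 1.29 with DMSO. At both earlier times the groups overlapped, and the ratio of the group means was 1.06 at 1 h, 1.01 at 4 h and 1.06 after recovery.

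**Figure D2:**
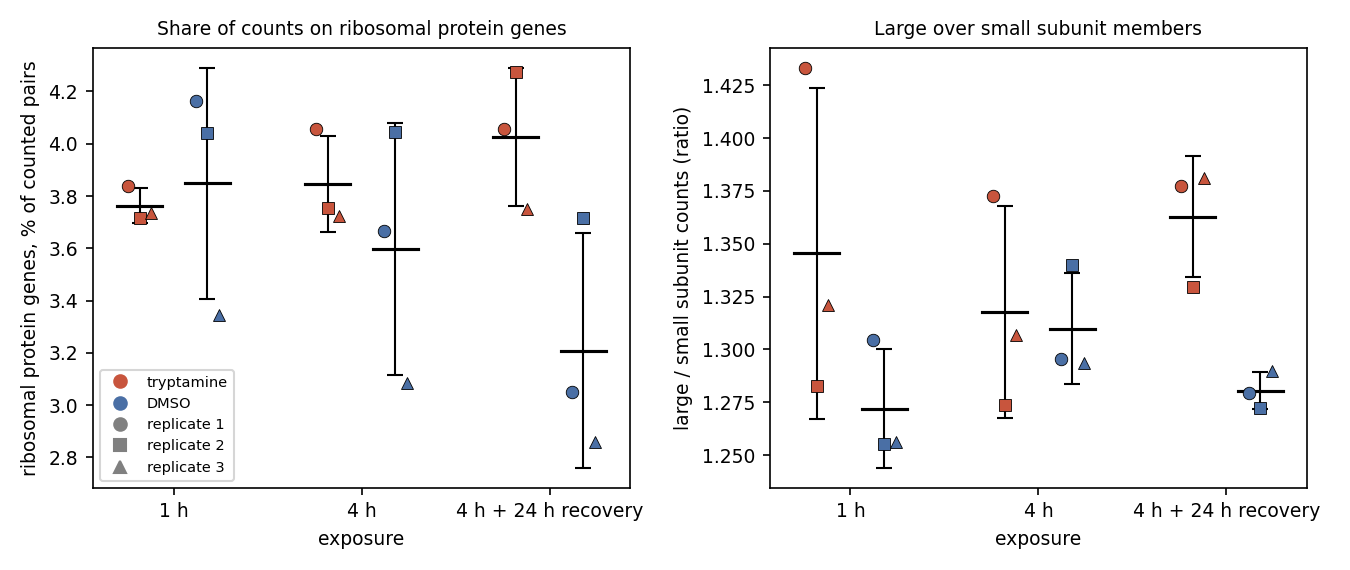
The left panel plots the percentage of counted read pairs on the 113 genes and the right panel the ratio of large to small subunit counts, for each library by exposure. Tryptamine stands left of DMSO, and bars mark the mean and SD of 3 libraries. After recovery the tryptamine libraries lie above the DMSO libraries in both panels, at 3.75% to 4.27% against 2.86% to 3.71% and at ratios of 1.33 to 1.38 against 1.27 to 1.29.

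Gene by gene, the recovery difference was small and nearly always positive. The log2 difference was above 0 for 82 of the 84 tested genes, against 47.4% of all tested genes, with a median of 0.31 against -0.03 over all tested genes. Over the 10348 other genes with at least 100 counts the median was 0.01. In 34 of the 84 genes all 3 tryptamine libraries lay above all 3 DMSO libraries, a pattern found in 13.4% of all tested genes, and the reverse was found in 0 of the 84 and 10.6% of all. A difference of at least 1.2-fold was reached by 53 genes and of at least 1.5-fold by 13, and the share over all tested genes is not given here. The 12 tested members under 100 counts had a median of 0.66 with a median SE of 0.43. In the 72 abundant members these were 0.29 and 0.16. The 84 genes are not independent of each other, since they share libraries and shift together.

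A single member passed the test after recovery. The edgeR quasi-likelihood test, with Benjamini-Hochberg adjustment over 24125 genes, called 1 of 84 members higher and 0 lower, while 1.36% of all tested genes were called higher and 0.497% lower. At an unadjusted p under 0.05, 32 members were higher and 0 lower, against 10.3% and 6.95% of all tested genes. DESeq2 called 7 members higher and limma-voom 1, and both called 0 lower. With a replicate block added to the edgeR fit, 24 members were called higher. The share of all tested genes called is given for the main edgeR fit only, so these other counts have no background beside them. In the main edgeR fit, without a block, the share called was near the background. The count called varied with the test and with the model fitted.

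RPL3 c79258-g1, whose protein reaches towards the site of peptide bond formation, was the gene called higher. It measured 996, 928 and 929 CPM in the tryptamine libraries, against 601, 661 and 539.6 CPM in the DMSO libraries. The tryptamine libraries all lay above the DMSO libraries and within a narrow range. The means were 951 ± 38.9 CPM and 601 ± 60.6 CPM (SD, n = 3 each), a difference of 0.66 on the log2 scale (SE 0.17, edgeR adjusted p = 0.0484). The call was lost when any 1 of the 6 recovery libraries was left out, with log2 differences of 0.59 to 0.74 and edgeR adjusted p of 0.0654 to 0.218. It was also lost with median-of-ratios scaling (edgeR adjusted p = 0.0561), with no filter (0.055) and with non-robust dispersions (0.0569), and held in DESeq2 (adjusted p = 0.0138) and limma-voom (adjusted p = 0.0465).

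In the small subunit all 38 tested genes had a positive difference after recovery, with a median of 0.28, and in 12 of them the groups did not overlap, against 13.4% of all tested genes with tryptamine higher. Among the larger differences of genes with at least 20 counts were those of RPS9 c104691-g2 (0.56, SE 0.17) and RPS2 c90647-g1 (0.54, SE 0.17). RPS9 c104691-g2, whose protein sits where messenger RNA enters, measured 666, 611 and 530.2 CPM with tryptamine, against 426, 434 and 365 CPM with DMSO, with no overlap (edgeR adjusted p = 0.0949). RPS2 c90647-g1, which lies nearby and bears on the accuracy of decoding in yeast, measured 1207, 1046 and 993 CPM with tryptamine, against 768, 849.7 and 611 CPM with DMSO, again with no overlap (edgeR adjusted p = 0.103).

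At the other end of the small subunit the differences were near 0. RPS7, the second highest small subunit gene per kilobase (c105067-g1), measured 766, 925 and 618 CPM with tryptamine, against 798, 891 and 612 CPM with DMSO, a difference of 0.00 on the log2 scale (SE 0.21). The scarcer RPS6 c95923-g1 differed by 0.03 (SE 0.17) and the scarce RPS20 c94132-g1, named for a protein of the small subunit's head, by 0.06 (SE 0.24). RPS19 c105287-g1 differed by 0.16 (SE 0.15), at 669, 727 and 571 CPM in tryptamine libraries and 591, 662 and 512 CPM with DMSO. All of these overlapped between the groups.

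Other small subunit genes of known special roles lay in between. RPSA c90367-g1, whose vertebrate relative also serves as a laminin receptor, measured 929, 870.3 and 809.6 CPM with tryptamine, against 671, 733 and 585 CPM with DMSO. The groups did not overlap, and the log2 difference was 0.39 (SE 0.16, edgeR adjusted p = 0.202). The scarcer RPSA c77270-g1 overlapped (0.18, SE 0.20). RPS6 c78291-g1, whose vertebrate relative is phosphorylated by S6 kinases downstream of mTORC1, measured 516, 541 and 481 CPM in tryptamine libraries and 441, 473 and 359.7 CPM with DMSO. These did not overlap either, with a difference of 0.27 on the log2 scale (SE 0.17, edgeR adjusted p = 0.445). The ubiquitin fusion genes RPS27A c40418-g1 (0.18, SE 0.14) and RPS27A c97940-g1 (0.33, SE 0.15) both overlapped between the groups.

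In the large subunit 44 of 46 tested genes had a positive difference after recovery, with a median of 0.39, and in 22 of them the groups did not overlap, against the same 13.4% of all tested genes. All 3 RPL4 genes were higher in every tryptamine library than in any DMSO library, and none passed the test. RPL4 c104433-g6 measured 1214, 1077 and 995 CPM with tryptamine, against 664, 775 and 632 CPM with DMSO, a difference of 0.67 on the log2 scale (SE 0.19, edgeR adjusted p = 0.0664). RPL4 c104433-g7 differed by 0.86 (SE 0.28, edgeR adjusted p = 0.111) and RPL4 c104433-g3 by 0.59 (SE 0.23, edgeR adjusted p = 0.195). RPL5 c110142-g1 measured 1675, 1478 and 1407 CPM with tryptamine, against 1022, 1119.7 and 879 CPM with DMSO, a difference of 0.59 on the log2 scale (SE 0.19, edgeR adjusted p = 0.0995). It was the most counted member, and its groups lay well apart.

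The stalk genes had differences of unequal size. RPLP0 c105071-g1, the base of the stalk, measured 1405, 1180.3 and 1155 CPM with tryptamine, against 939.6, 963 and 716 CPM with DMSO (log2 difference 0.51, SE 0.17, edgeR adjusted p = 0.124). RPLP1 c92420-g1 measured 790.3, 768 and 645 CPM with tryptamine, against 513, 565 and 431 CPM with DMSO (0.55, SE 0.16, edgeR adjusted p = 0.0717). RPLP2 c105099-g1 measured 1076, 1113 and 878 CPM with tryptamine, against 914, 1092 and 763 CPM with DMSO (0.15, SE 0.18, edgeR adjusted p = 0.731). The groups were apart for RPLP0 and RPLP1 and overlapped for RPLP2, and the differences between these genes were not tested.

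The lowest differences in the large subunit included the only negative ones. RPL36 c103407-g1 differed by -0.21 (SE 0.54) and RPL23A c97924-g1, the scarcer of 2 genes named for a docking protein at the tunnel exit, by -0.15 (SE 0.17). RPL23 c105951-g1 measured 695, 771 and 594 CPM with tryptamine, against 689, 771 and 562 CPM with DMSO, a difference of 0.03 (SE 0.19). RPL9 c105077-g1 measured 1144, 1220.5 and 995 CPM with tryptamine, against 927, 1079.8 and 810.0 CPM with DMSO, a difference of 0.25 (SE 0.15), which was below the subunit's median. All 4 overlapped between the groups.

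**Figure D3:**
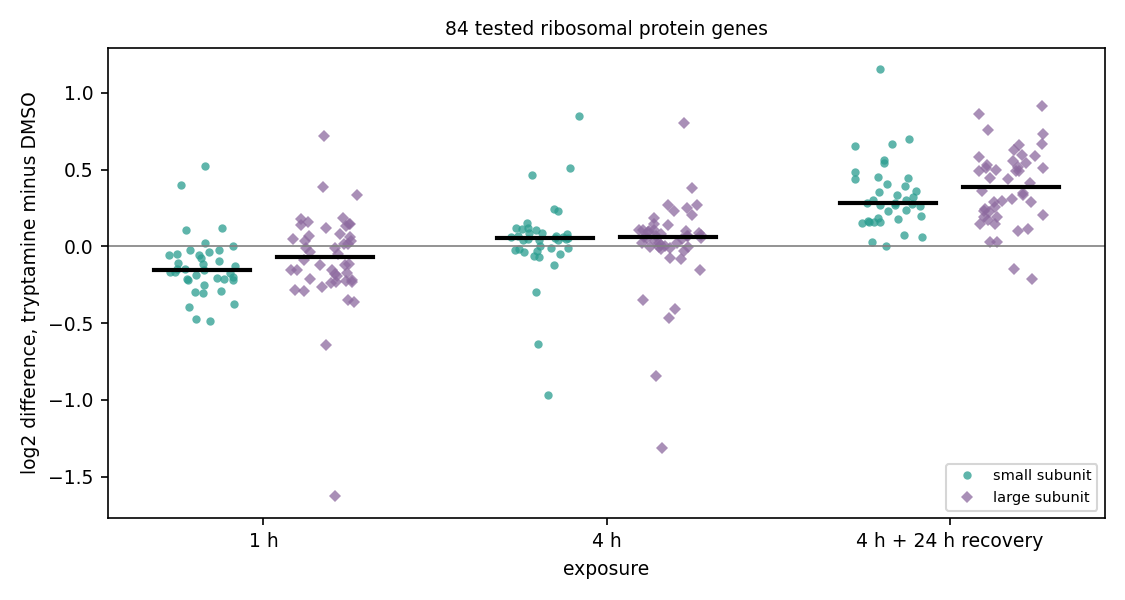
Each point is the log2 difference, tryptamine minus DMSO, of 1 of the 84 tested genes at 1 h, at 4 h and after recovery, with small subunit genes left and large subunit genes right, and the bar is the median. The medians are -0.15 and -0.07 at 1 h, 0.05 and 0.06 at 4 h and 0.28 and 0.39 after recovery, and 82 of 84 points are above 0 after recovery.

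**Figure D4:**
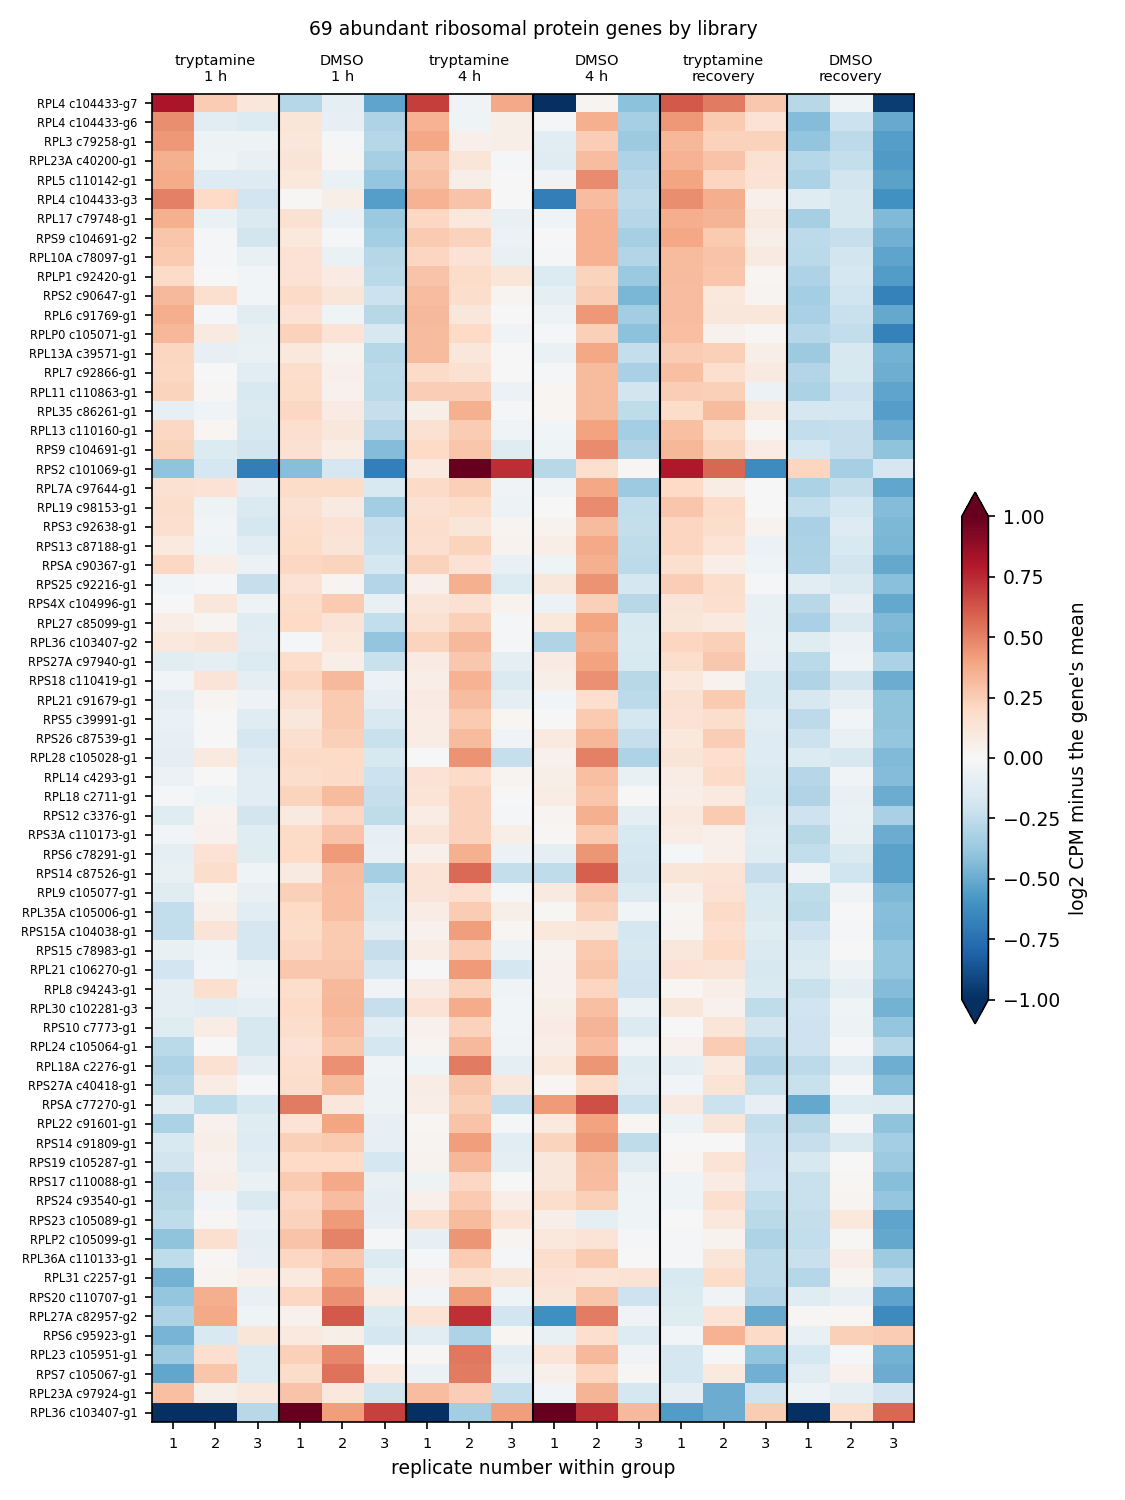
Colours give the log2 CPM (with 0.5 added) of 69 of the abundant genes in each of the 18 libraries minus the gene's own mean, with genes ordered by their difference after recovery and colours limited to 1 in either direction. The DMSO recovery libraries, at the right edge, are low for most genes, with median deviations of -0.25, -0.09 and -0.46 over the 72 abundant genes.

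At 1 h no member passed the test, and the differences leaned the other way. The edgeR test called 0 of 84 higher and 0 lower, as for all tested genes (0% and 0%), and DESeq2 and limma-voom also called 0 members. At an unadjusted p under 0.05, 1 member was higher and 1 lower, against 3.01% and 3.43% of all. The log2 difference was negative for 59 of 84 and positive for 25, against 52.8% positive of all tested genes, with a median of -0.12 against 0.02 over all tested genes, -0.15 in the small and -0.07 in the large subunit. In 2 members the groups were apart with tryptamine higher and in 3 with tryptamine lower, against 5.99% and 6.18% of all tested genes.

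At 4 h the members centred close to 0. The edgeR test, DESeq2 and limma-voom each called 0 higher and 0 lower, while edgeR called 0.236% of all tested genes higher and 1.27% lower. At an unadjusted p under 0.05, 2 members were higher and 1 lower, against 5.24% and 6.49% of all. The median was 0.05 with 57 of 84 positive, against 0.00 with 50.6% positive over all tested genes. It turned negative without tryptamine replicate 2 (-0.03) or without DMSO replicate 3 (-0.08), and was 0.20 without DMSO replicate 2. In 2 members the groups were apart with tryptamine higher, against 6.19% of all tested genes, and in 0 with tryptamine lower, against 7.34%.

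The largest fold at the early times was that of the scarcer RPL36 gene. RPL36 is a large subunit protein, and c103407-g1 had 343, 356 and 654 counts with tryptamine at 1 h, against 1933, 1751 and 1229 counts with DMSO. Scaled, these were 25.5, 24.7 and 48.4 CPM in tryptamine libraries and 132, 78.4 and 94.6 CPM with DMSO. The groups did not overlap, and the log2 difference was -1.63 (SE 0.55, edgeR adjusted p = 0.726). At 4 h it measured 28.7, 46.1 and 78.7 CPM with tryptamine, against 209, 98.0 and 73.8 CPM with DMSO, which overlapped (-1.31, SE 0.55, edgeR adjusted p = 0.356). After recovery it measured 39.7, 41.5 and 70.2 CPM in tryptamine libraries and 20.6, 66.5 and 87.8 CPM with DMSO.

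Its more abundant partner, RPL36 c103407-g2, differed by 0.13 at 1 h, 0.18 at 4 h and 0.33 after recovery on the log2 scale, and was set beside it after its values were seen. As a share of both RPL36 genes, c103407-g1 took 5.13%, 4.90% and 10.7% of the counts with tryptamine at 1 h, against 23.4%, 14.3% and 22.2% with DMSO. At 4 h the shares were 5.31%, 7.78% and 15.4% with tryptamine, against 37.1%, 14.9% and 15.7% with DMSO, so the groups overlapped. After recovery they were 7.25%, 7.46% and 14.4% with tryptamine and 4.87%, 13.7% and 21.6% with DMSO. The 2 genes belong to 1 component of the assembly, and whether they are 2 genes or forms of 1 was not tested.

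RPL4 c104433-g7 had the highest difference at 1 h. It measured 74.4, 50.2 and 45.5 CPM with tryptamine at 1 h, against 34.5, 39.6 and 29.1 CPM with DMSO, without overlap (log2 difference 0.72, SE 0.28, edgeR adjusted p = 0.741). At 4 h it measured 68.4, 41.0 and 54.9 CPM with tryptamine, against 19.9, 43.0 and 31.5 CPM with DMSO (0.80, SE 0.28, edgeR adjusted p = 0.221). After recovery it measured 64.7, 60.6 and 51.0 CPM with tryptamine, against 34.7, 40.9 and 21.5 CPM with DMSO. Its 2 RPL4 partners on the same component differed by 0.18 (c104433-g6) and 0.33 (c104433-g3) at 1 h, both with overlap.

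The highest difference at 4 h was that of the scarcer RPS2 gene. RPS2 c101069-g1 measured 56.8, 136 and 89.1 CPM with tryptamine, against 43.7, 59.4 and 53.7 CPM with DMSO, a difference of 0.85 on the log2 scale (SE 0.33, edgeR adjusted p = 0.303) with overlap. In the tryptamine series it had 40.1, 47.1 and 32.7 CPM at 1 h, and all 3 libraries at 4 h were higher (log2 difference 1.23, SE 0.33, edgeR adjusted p = 0.108).

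The change of the tryptamine effect between times was tested with interaction contrasts, and 0 members were called in either direction by edgeR in any of the 3. From 1 h to recovery the median difference of effects was 0.45, or 0.32 to 0.55 with libraries left out, and 82 of 84 members were positive against 49% of all tested genes. At an unadjusted p under 0.05, 16 members were higher and 0 lower, against 3.76% and 3.27% of all, and 0% of all tested genes were called. From 4 h to recovery the median was 0.29 with 78 positive, against 50.8% of all tested genes. It was 0.12 without DMSO 4 h replicate 2, 0.18 without DMSO recovery replicate 3 and at most 0.40. There were 4 members higher and 0 lower at an unadjusted p under 0.05, against 6.28% and 4.8% of all, and 0.0953% of all were called higher and 0% lower. From 1 h to 4 h it was 0.14 with 70 positive, against 48.5% of all tested genes. That median was 0.03 without DMSO 4 h replicate 3 and 0.31 without DMSO 4 h replicate 2, and it also moved by over 1.5 times without any 1 of the DMSO 1 h libraries or without tryptamine 4 h replicate 2 or 3. There was 1 member higher and 0 lower at an unadjusted p under 0.05, against 1.54% and 2.58% of all, and 0% of all were called. The 3 contrasts share libraries with each other.

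The smallest p from 1 h to recovery belonged to the scarce RPS4X c77523-g1, with a change of 1.63 (SE 0.56, edgeR adjusted p = 0.704). It had 1.34, 1.75 and 1.17 CPM with tryptamine after recovery, against 0.397, 0.566 and 0.885 CPM with DMSO, levels of 17, 24 and 17 counts with tryptamine and 5, 7 and 15 counts with DMSO. RPL35 c86261-g1, a protein of the tunnel exit, followed with 0.61 (SE 0.23). It measured 75.1, 82.5 and 70.6 CPM with tryptamine after recovery, against 58.7, 58.9 and 44.9 CPM with DMSO, and 62.4, 64.4 and 59.8 CPM with tryptamine at 1 h, against 76.5, 69.8 and 56.4 CPM with DMSO.

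From 4 h to recovery the smallest p values were those of RPL17 c79748-g1 (0.53, SE 0.25), RPL4 c104433-g6 (0.56, SE 0.26) and RPL10A c78097-g1 (0.49, SE 0.23), with edgeR adjusted p of 0.438 to 0.441. RPL17 lies at the tunnel exit and RPL10A on the stalk through which used transfer RNA leaves. From 1 h to 4 h it was RPS23 c105089-g1, a protein of the decoding centre, with a change of 0.54 (SE 0.22, edgeR adjusted p near 1). RPS23 c105089-g1 had 680.0, 761 and 672 CPM with tryptamine at 4 h, against 637, 573 and 593 CPM with DMSO, and 512, 613 and 582 CPM with tryptamine at 1 h, against 716, 819 and 577 CPM with DMSO.

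Within the vehicle group nearly all members had lower values after recovery than at 4 h. There 81 of 84 members were lower, with a median log2 difference of -0.34 against 0.01 over all tested genes. The median was -0.17 without DMSO 4 h replicate 2 and -0.46 without DMSO 4 h replicate 3. The edgeR test called 0 members higher or lower, while 2.54% of all tested genes were called higher and 4.33% lower, and at an unadjusted p under 0.05 it gave 32 members lower and 0 higher, against 11.7% and 9.94% of all. Without DMSO 4 h replicate 3, 6 members were called lower. The groups did not overlap in 9 members with recovery lower, against 13.4% of all tested genes, and 3 of these were also among the 34 that did not overlap between tryptamine and DMSO after recovery. The 2 comparisons share the DMSO recovery libraries.

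The smallest adjusted p in that step was that of the scarcer RPSA c77270-g1, at 39.9, 52.4 and 52.1 CPM in DMSO after recovery, against 76.9, 89.3 and 49.0 CPM at 4 h (-0.57, SE 0.20, edgeR adjusted p = 0.0858). RPL27 c85099-g1 measured 211, 239 and 195 CPM after recovery, against 285, 349 and 238 CPM at 4 h (-0.43, SE 0.15, edgeR adjusted p = 0.0879). RPL18 c2711-g1 measured 284, 333 and 248 CPM after recovery, against 369, 424 and 348 CPM at 4 h (-0.40, SE 0.15, edgeR adjusted p = 0.111). Only RPL18 of these 3 had no overlap, and RPL18 and RPL27 are both core proteins of the large subunit.

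Within the tryptamine series the median from 4 h to recovery was -0.04, with 30 of 84 members positive against 54% of all tested genes. It was -0.12 without tryptamine 4 h replicate 3 and 0.04 without tryptamine recovery replicate 3, and the difference between the series was tested only as the interaction. The edgeR test called 0 members, against 1.4% of all tested genes called higher and 3.45% lower, and at an unadjusted p under 0.05 it gave 0 members higher and 1 lower, against 9.07% and 11.4% of all. In 1 member each the libraries were apart with recovery higher and with recovery lower, against 11.7% and 9.85% of all tested genes.

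From 1 h to 4 h in tryptamine the median was 0.16, with 79 of 84 members positive against 48.4% of all tested genes. It was 0.08 without tryptamine 4 h replicate 2 and at most 0.22. The edgeR test called 0 members, against 0.269% of all tested genes called higher and 0.0788% lower. It gave 2 members higher and 0 lower at an unadjusted p under 0.05, against 7.44% and 5.06% of all, and DESeq2 called 1 higher. The times were apart in 13 members with 4 h higher and 2 with 4 h lower, against 7.52% and 7.06% of all tested genes. In DMSO from 1 h to 4 h the median was 0.01, with 44 of 84 positive against 51.7% of all tested genes. The edgeR test called 0 members and gave 0 at an unadjusted p under 0.05, against 2.81% of all tested genes called higher, 1.05% called lower, and 8.3% and 6.67% at the unadjusted p.

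The smallest adjusted p after recovery in tryptamine was that of RPL23A c97924-g1 (-0.39, SE 0.17, edgeR adjusted p = 0.216). In DMSO from 1 h to 4 h it was that of RPL31 c86434-g1 (1.53, SE 0.77, edgeR adjusted p = 0.365), a gene of 5.44 counts on average, followed by the scarce RPL7 c93131-g1 (0.74, SE 0.40).

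Among the members, the class of the longest entries had the largest median difference after recovery. The 72 abundant genes were split by the length of the longest transcript entry into classes of 24. The median log2 difference after recovery was 0.24 for entries of 323 to 589 bases, 0.26 for 594 to 792 bases and 0.45 for 793 to 1532 bases, and the groups did not overlap in 5, 8 and 18 genes, against 13.4% of all tested genes with tryptamine higher. Other genes with at least 100 counts and the same lengths had medians of -0.08, -0.03 and 0.02. At 1 h the members' medians were -0.17, -0.19 and 0.01. Across the 72 genes, which are not independent replicates, length and difference had a Pearson correlation of 0.269 and a Spearman correlation of 0.417 after recovery, and 0.291 and 0.464 at 1 h. Across 10348 other genes with at least 100 counts they were also positive, 0.19 and 0.192 after recovery and 0.237 and 0.247 at 1 h.

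Libraries also differed in the relative levels of short and long transcripts, and expression and library preparation cannot be told apart here. Over other genes with at least 100 counts, the median log2 deviation of genes under 1000 bases minus that of genes over 2000 bases was -0.13, -0.01 and -0.16 in the tryptamine recovery libraries and 0.01, 0.07 and 0.00 in the DMSO recovery libraries. The groups did not overlap, although the closest pair, -0.01 and 0.00, nearly met. With the length trend of each library removed, the members' median after recovery was 0.34 and 2 members were called higher. The part of transcript length in the ratio of large to small subunit counts was not tested.

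**Figure D5:**
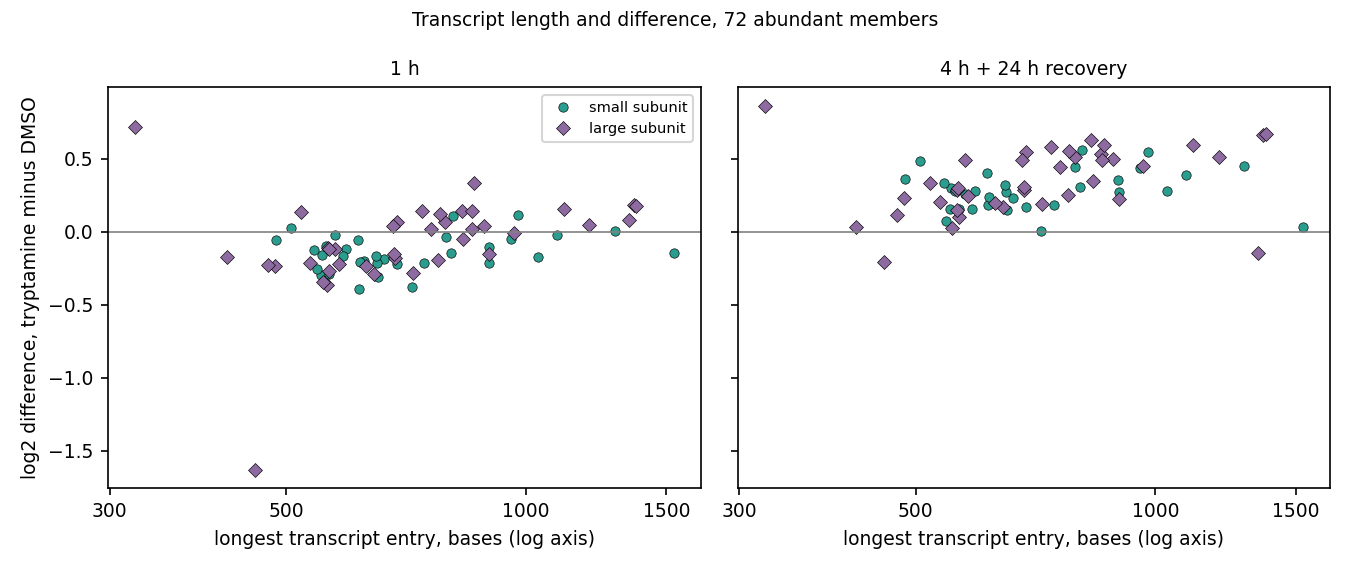
The log2 difference, tryptamine minus DMSO, of the 72 abundant genes is plotted against the length of the longest transcript entry on a log axis, at 1 h (left) and after recovery (right), with the subunit shown by shape. After recovery the longest class, from 793 bases, has a median of 0.45 and the shortest, up to 589 bases, a median of 0.24.

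Genes that work with the ribosome were described from lists of vertebrate symbols, to be read against the 1.36% of all tested genes called higher and 0.497% called lower after recovery. After recovery 1 of 7 elongation factor genes was called higher and 0 lower, with a median log2 difference of 0.66. EEF1G c39449-g1, a subunit of the exchange factor for the carrier of aminoacyl-tRNA, measured 556 ± 26.7 CPM in tryptamine libraries and 335 ± 47.2 CPM with DMSO (SD, n = 3 each; 0.73, SE 0.18, edgeR adjusted p = 0.0462). EEF1A1 c88048-g1, named for that carrier, averaged 571 ± 42.4 CPM in tryptamine libraries and 322 ± 39.0 CPM with DMSO (0.83, SE 0.21), with an edgeR adjusted p just above 0.05. Among 28 initiation factor genes 4 were called higher and 0 lower, with a median of 0.43. EIF3C c103730-g4, of the scaffold that binds the small subunit, measured 399.8 ± 15.9 CPM in tryptamine libraries and 224 ± 13.3 CPM with DMSO (0.84, SE 0.18, edgeR adjusted p = 0.0324). EIF2S3 c101771-g1, of the factor that brings the initiator tRNA, differed by 0.65 (SE 0.15, edgeR adjusted p = 0.0331).

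In the list of mTORC1 and its control of ribosomal protein messages, 1 of 23 genes was called higher and 0 lower, with a median of 0.04. That gene was LARP1 c104101-g2, at 255 ± 36.8 CPM in tryptamine libraries and 147 ± 10.2 CPM with DMSO (0.80, SE 0.19, edgeR adjusted p = 0.0420). The gene of next smallest p, the kinase RPS6KA4/RPS6KA5 c102381-g1, differed by -0.29 (SE 0.13, edgeR adjusted p = 0.243). This kinase entered the list by its symbol, and a link to mTORC1 was not tested. Of 5 ribosome-bound or co-translational proteins 0 were called, with a median of 0.06, 1 at an unadjusted p under 0.05 and SERBP1 c97934-g1, which binds idle ribosomes in vertebrates, at 0.67 (SE 0.19, edgeR adjusted p = 0.0631). BTF3 c39484-g1, of the complex that shields nascent chains, differed by 0.27 (SE 0.13).

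The same comparison called 27 of 58 genes for ribosome assembly and RNA polymerase I higher and 0 lower, with a median of 0.77. DDX18 c103111-g2, a helicase of large subunit assembly, measured 82.4 ± 6.49 CPM in tryptamine libraries and 44.7 ± 2.54 CPM with DMSO (0.88, SE 0.16, edgeR adjusted p = 0.0248). WDR75 c99923-g1, of the small subunit's processing complex, differed by 1.06 (SE 0.21, edgeR adjusted p = 0.0297). Of 47 mitochondrial ribosomal protein genes 3 were called higher and 0 lower, with a median of 0.43, among them MRPS25 c92029-g1 (0.73, SE 0.18, edgeR adjusted p = 0.0412) and MRPS27 c99385-g1 (0.69, SE 0.17, edgeR adjusted p = 0.0432). Cytosolic ribosomal protein genes thus had a smaller median difference than both lists, and the difference between the lists was not tested.

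Markers of sponge cell types were set beside the members, all from lists of vertebrate symbols with no member at 0 in every library. After recovery 0 of 65 tested choanocyte flagellum genes, 0 of 12 archaeocyte genes and 0 of 25 contractile pinacocyte genes were called by edgeR, with medians of -0.08, 0.22 and -0.31. At an unadjusted p under 0.05 these lists had 3, 5 and 1 genes higher and 6, 0 and 6 lower, against 10.3% and 6.95% of all tested genes. The log2 difference was positive in 28 of 65, 10 of 12 and 4 of 25, against 47.4% of all tested genes. Groups were apart in 3, 5 and 1 genes with tryptamine higher, against 13.4% of all tested genes. With tryptamine lower they were apart in 5, 0 and 6, against 10.6%. Archaeocyte markers summed to 1324 to 1749 CPM in the tryptamine libraries and 1448 to 1632 CPM in the DMSO libraries. Choanocyte markers summed to 1440 to 1949 CPM in tryptamine libraries and 1701 to 1936 CPM with DMSO, and pinacocyte markers to 2019 to 3702 CPM in tryptamine libraries and 3225 to 4294 CPM with DMSO. All 3 sums overlapped between the groups after recovery, and their part in the members' difference was not tested.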

How the data were processed

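PolyA RNA of whole juvenile sponges was sequenced in 18 libraries, per the labels' protocols. The authors deposited raw counts: read pairs were assigned to genes with featureCounts 2.1.1, per the file headers, which required both ends mapped, left out chimeric pairs, and set neither strand nor multi-mapping options. Alignment used STAR, per the submitters' processing notes, with a version not given in the sources used here. Library totals were 11379345 to 23769406 counts, the second highest 15798197, and 3 counts corresponded to 0.134 to 0.283 CPM, for counting error only.

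Groups were taken from the labels. In R 4.3.3, filterByExpr left 24125 genes, and all 18 libraries entered 1 fit of edgeR 4.0.16 (quasi-likelihood test, robust dispersions, TMM factors of 0.854 to 1.09), with 12 residual degrees of freedom. Tests were two-sided, with Benjamini-Hochberg adjustment over all tested genes and a threshold of 0.05. CPM values are counts scaled by TMM. The same steps were checked on simulated data. Alternatives were DESeq2 1.42.0, limma-voom (limma 3.58.1), other scaling, filters, dispersions and member rules, the compared groups alone, a replicate block, removal of the length trend and leaving out single libraries. Leaving out all libraries of 1 number was added after seeing the data.

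The members and lists were chosen with earlier results of these data known. The rule for naming genes took called members, the 3 highest per kilobase and the 3 highest and lowest after recovery in each subunit, genes of the symbols with most genes, RPSA, RPS27A, RPS6 and stalk genes, the 3 smallest p of the other contrasts and 2 genes per list. Some genes that this rule names are not reported here.

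Same-numbered libraries deviated together at 1 h (correlations 0.332 to 0.402), at 4 h (0.115 to 0.191), and from 1 h to 4 h within tryptamine (0.249 to 0.435) and within DMSO (0.179 to 0.273), which pairs them by the data and not by the labels. Replicate counts differed beyond sampling noise, with a chi-square per degree of freedom of 8.27 to 48.69 in 18 pairs.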

Additional observations from a re-analysis of the deposited data

How the results depend on the processing

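The median member difference and the ratio of shares kept their direction after recovery under all alternatives run, with medians of 0.24 to 0.40 when single libraries or all libraries of 1 number were left out and ratios of 1.19 to 1.36 when single libraries were. The count of members called higher after recovery was 1 in the main edgeR fit and 7 with DESeq2. It was 4 with the compared groups alone, 2 with the length trend removed, and 0 with median-of-ratios scaling, no filter or non-robust dispersions. It was 0 in each of the fits that left out 1 library or 1 number, a range of 0 to 0. The replicate block gave 24 members called higher after recovery. There same-numbered libraries had correlations of 0.0852 to 0.287, and 6 of 6 libraries correlated best with their own number. In DMSO from 4 h to recovery the block gave 20 members called lower. The correlations were -0.161 to 0.0612 there, with 0 of 6 best with their own number, so the numbers do not pair those libraries. The block changed no other count of calls. In DMSO from 4 h to recovery no filter gave 1 called lower, and leaving out libraries 0 to 6. From 1 h to 4 h in tryptamine DESeq2 called 1 higher, and leaving out libraries 0 to 1. The causes of these changes were not tested. The share of all tested genes called is given for the main fit only, so the counts under alternatives have no background beside them. Of 2041 values of named members under alternatives, 12 lost the call, all of RPL3, and 17 gained one. In 148 of them, from 43 of the 114 named differences, the sign changed, and 0 of these were called under either setting. The change was smaller than the standard error of the reported value in 141 and at least as large in 7. For the differences with those 7, the lowest and highest log2 values with libraries left out were -0.193 and 0.147 for RPL23 at 4 h, -0.0427 and 0.29 for RPL4 c104433-g6 at 1 h, -0.163 and 0.166 for RPS7 at 4 h, -0.173 and 0.119 for RPS27A c97940-g1 at 4 h, -0.398 and 0.0511 for RPS6 c95923-g1 at 1 h, -0.264 and 0.07 for the same gene at 4 h, and -0.0548 and 0.306 for RPSA c77270-g1 after recovery. No difference could be tested in 29 members that fell under the filter on low counts, 8 of them with no count.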
